A study of Mus musculus with 21 samples.

Results

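RNA of healthy aortic valves was compared between XCT790-treated mice heterozygous for Notch1 and solvent-treated wild-type mice, across all genes of the deposited table. The members are the 5 libraries titled N1het with XCT790 and the 4 titled WT, 9 of the 21 libraries of the series, chosen by title. The N1het mice had the genotype N1+/- and received XCT790 by daily injection into the abdomen at 5 mg/kg/day, and the WT mice had the genotype N1+/+ and received the solvent. Both groups were treated for 4 weeks from 4 weeks of age, and both carried Terc-/- in generation 2, so the WT valves came from telomerase-deficient mice too. The comparison therefore joins genotype and treatment, which cannot be told apart in it. The table's 6 healthy N1het libraries after solvent are given beside it where they bear on a value.

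Notch1 encodes a cell surface receptor whose inner part is released on contact with a ligand and then acts on transcription in the nucleus. In people, loss of a copy of NOTCH1 is a known cause of malformed and calcified aortic valves. Terc is the RNA template of telomerase, and shortened telomeres are used with Notch1 haploinsufficiency to model valve disease in mice. ERRα, encoded by Esrra, is an orphan nuclear receptor that XCT790 inhibits as an inverse agonist, and it works with PGC-1 coactivators on genes of mitochondrial respiration and fatty acid oxidation.

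No gene differed between N1het XCT790 and WT valves beyond the spread of the libraries after adjustment over all genes. Limma called 0 of the 14966 genes tested (0%) at an adjusted p under 0.05, and the smallest adjusted p was 0.221. Voom on the recovered reads also called 0, and without WT 3 limma called the 3 genes named with Zfp869 further on. At an unadjusted p under 0.05 stood 1107 genes (7.4%), with 862 (5.76%) higher and 245 (1.64%) lower in N1het XCT790 valves. Another scaling of the libraries, by the median of ratios, changed this split to 625 (4.18%) higher and 403 (2.69%) lower. The median log2 difference of all genes was 0.12 on the deposited scale and 0.02 with that scaling, and single values below are to be read relative to it. All 5 N1het XCT790 libraries lay above all 4 WT libraries in 262 genes (1.75%) and below them in 76 (0.508%). When changes of known size were put into simulated libraries of this spread, the test found 11.2% of those of 2-fold, 54.5% at 4-fold and 73.8% at 8-fold. It made 3 false calls in a run of 14966 genes. The changed genes were drawn from those above about 2 FPKM in WT, so recovery of lower genes was not tested.

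**Figure D1:**
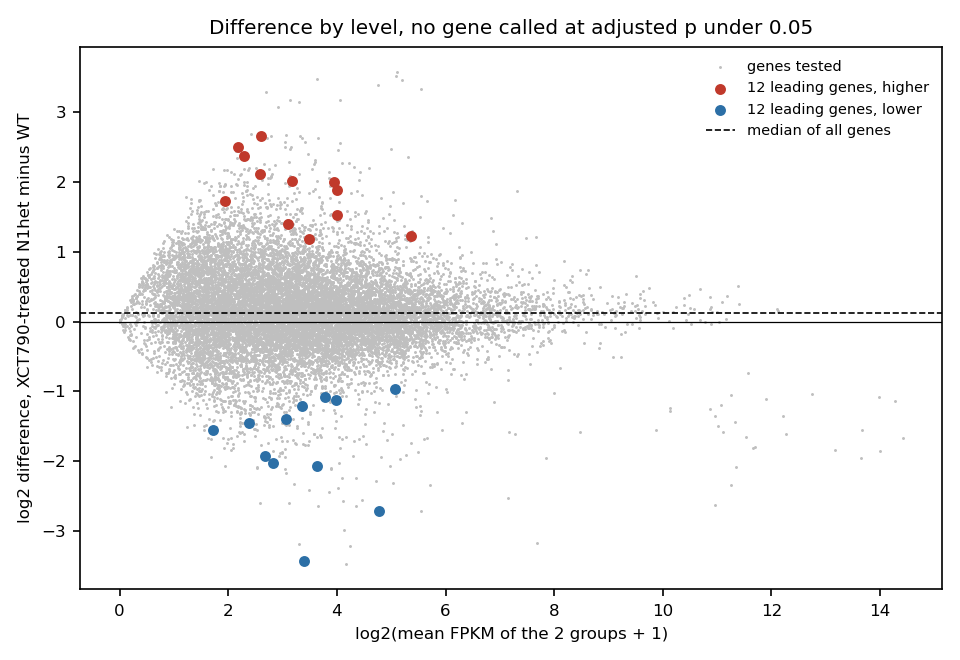
Each grey point is a gene tested, with its level over both groups on the horizontal axis and its log2 difference, N1het XCT790 minus WT, on the vertical axis. The coloured points are the 12 leading genes in each direction and the dashed line is the median of all genes at 0.12.

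The 9 libraries differed in ways the groups do not set. N1het XCT790 libraries held 24.8, 22.4, 13.7, 14.5 and 11.5 M reads (megareads, recovered from the steps of the FPKM values), and WT libraries 21.5, 10.6, 8.9 and 8.4 M. Genes at 0 made up 18.7% ± 3.89 of the table in N1het XCT790 and 24.3% ± 2.34 in WT libraries (SD, n = 5 and 4; exact permutation p = 0.0317, two-sided, adjusted p = 0.475 over 15 library measures, with 0.0159 the smallest that 126 splits allow). A second label, the agent, contradicts the titles: N1het XCT790 libraries 1, 2 and 3 carry the solvent there, while libraries 4 and 5 carry XCT790. Outside this comparison it contradicts them the other way too. The stenotic N1het libraries 1, 2 and 3, titled with the solvent, carry XCT790 there. Which label is right was not tested, so values split by the agent label may not be a split by treatment. The groups follow the titles, as the columns of the table do, and some values are given by that label too, with 0.06 (XCT790 label) and 0.14 (solvent label) as the median log2 differences of all genes from WT. Between libraries 4 and 5 and libraries 1, 2 and 3 limma called 0 genes (0%), while 826 (5.52%) had an unadjusted p under 0.05. WT 1 and WT 4 correlated least with the other libraries, and without both the count of called genes was again 0, and 924 had p under 0.05 before adjustment.

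In a list of 18 genes typical of fibroblasts and other interstitial cells of the valve, 17 were detected in every library. The list had a mean log2 level of 6.49 to 7.36 in the 9 libraries, and Dcn was its highest gene. Dcn, which encodes the small proteoglycan decorin of fibroblasts, ranged from 4150 to 5010 FPKM (fragments per kilobase of gene and megaread of the library) in N1het XCT790 libraries and from 3370 to 4700 FPKM in WT libraries. Markers of heart muscle cells, a neighbouring tissue, had a mean log2 level of 5.05 in N1het XCT790 5 and of 5.28 in WT 4, and of 2.89 or less in the other 7 libraries. Tnnt2, the troponin T of heart muscle, stood at 53.8, 171, 74.8, 288 and 949 FPKM in N1het XCT790 libraries and at 27.7, 30.5, 106 and 1670 FPKM in WT libraries. The highest library of each group thus carried most of this signal, and the groups overlapped.

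**Figure D2:**
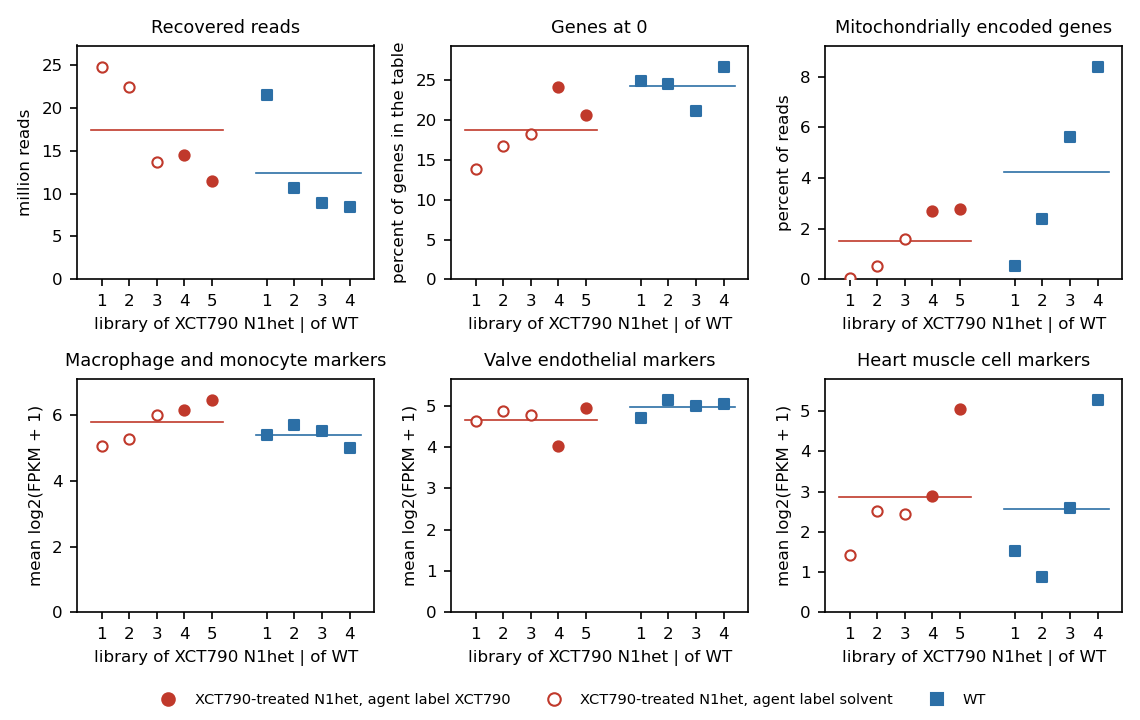
Each point is a library, with N1het XCT790 libraries 1 to 5 at the left and WT libraries 1 to 4 at the right of each panel, and lines are group means. Filled circles carry XCT790 in the agent label and open circles the solvent. Genes at 0 average 18.7% and 24.3%, and heart muscle markers are high in N1het XCT790 5 and WT 4.

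Notch1 itself did not differ between the groups beyond the spread of the libraries. Its levels were 33.7, 35.9, 29.3, 19.4 and 43.6 FPKM in N1het XCT790 libraries, against 46.5, 33.6, 26.6 and 28.7 FPKM in WT libraries. The log2 difference on the log2(FPKM + 1) scale was -0.08 ± 0.26 (SE; limma adjusted p = 0.97), and the libraries overlapped throughout. Transcripts of an altered allele may be counted in these totals, and the genotype rests on the labels. Esrra, which encodes ERRα, was low, at 2.47, 1.19, 1.24, 1.42 and 2.89 FPKM in N1het XCT790 libraries and 1.83, 2.33, 3.46 and 2.00 FPKM in WT libraries. Its log2 difference was -0.28 ± 0.35 (adjusted p = 0.893). An inverse agonist acts on the receptor protein, and the level of its mRNA was not used as a check of the treatment. Terc was not analysed here.

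The gene with the smallest p was Acot7 (ENSMUSG00000028937), which encodes an enzyme that splits long-chain acyl-CoA into fatty acid and coenzyme A. It stood at 24.1, 23.6, 26.6, 20.5 and 25.0 FPKM in N1het XCT790 libraries, against 4.83, 6.76, 3.88 and 8.29 FPKM in WT libraries. The N1het XCT790 libraries lay close together and all above the WT libraries, with a log2 difference of 1.89 ± 0.34 (SE; limma adjusted p = 0.221). The 6 solvent-treated N1het libraries had a median of 16 FPKM and ranged from 9.80 to 35.8. Against those the difference of N1het XCT790 was 0.41 ± 0.31 (adjusted p = 1).

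Phgdh, the first enzyme of serine synthesis, had 9.21, 5.76, 4.21, 9.10 and 7.74 FPKM in N1het XCT790 libraries and 0.0374, 0.985, 1.35 and 0.143 FPKM in WT libraries. Every N1het XCT790 library was above every WT library, and the log2 difference was 2.37 ± 0.50 (adjusted p = 0.221). Tmem97, a sterol-regulated membrane protein known as the sigma-2 receptor, had 3.93, 4.77, 4.74, 12.1 and 8.20 FPKM against 0.473, 0, 0.814 and 0 FPKM in WT. It was low in WT libraries without exception, and its log2 difference was 2.50 ± 0.52 (adjusted p = 0.221). Comt1, the catechol-O-methyltransferase that inactivates catecholamines, averaged 56.5 ± 12.5 FPKM in N1het XCT790 and 23.8 ± 6.54 FPKM in WT libraries (SD, n = 5 and 4), a log2 difference of 1.22 ± 0.26 (adjusted p = 0.221). Hpse, the heparanase that cuts heparan sulfate of the matrix, averaged 13.3 ± 5.36 FPKM in N1het XCT790 and 2.81 ± 2.19 FPKM in WT libraries (2.02 ± 0.43, adjusted p = 0.221).

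Mrpl10, a protein of the large subunit of the mitochondrial ribosome, had 15.7, 22.7, 16.4, 29.0 and 29.3 FPKM in N1het XCT790 libraries and 4.91, 7.44, 12.4 and 0.566 FPKM in WT libraries (log2 difference 2.01 ± 0.42, adjusted p = 0.221). Zfp869, a zinc finger protein gene, had 14.5, 15.1, 12, 16.9 and 13.2 FPKM in N1het XCT790 libraries and 5.21, 4.35, 9.89 and 4.50 FPKM in WT libraries (1.19 ± 0.24, adjusted p = 0.221). The value of 9.89 in WT 3 stood apart from the other WT libraries. Without WT 3 limma called 3 genes, namely Zfp869 (1.43 ± 0.23), Mrpl10 (2.42 ± 0.41) and 2410015M20Rik (3.16 ± 0.54, against 2.37 ± 0.63 with it), each with an adjusted p of 0.0448. The last is named because it completes that count, after its values were seen.

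Upf3a and Smg5, both factors of nonsense-mediated mRNA decay, averaged 22.7 ± 7.29 and 11.5 ± 4.00 FPKM in N1het XCT790 libraries, against 7.10 ± 1.80 and 3.62 ± 0.538 FPKM in WT libraries. Their log2 differences were 1.53 ± 0.33 (adjusted p = 0.221) and 1.40 ± 0.32 (adjusted p = 0.258). Ebi3, a subunit shared by the cytokines interleukin-27 and interleukin-35, averaged 9.49 ± 4.88 FPKM in N1het XCT790 and 0.608 ± 0.703 FPKM in WT libraries (2.66 ± 0.60, adjusted p = 0.258). Kctd15, a BTB domain protein that restrains neural crest formation in fish and frog embryos, averaged 8.93 ± 5.52 FPKM in N1het XCT790 and 1.04 ± 0.236 FPKM in WT libraries (2.11 ± 0.46, adjusted p = 0.221). Dgcr6, a gene of the DiGeorge syndrome region, averaged 4.94 ± 2.74 FPKM in N1het XCT790 and 0.721 ± 0.563 FPKM in WT libraries (1.72 ± 0.39, adjusted p = 0.258).

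Among genes with lower values, Grrp1, which encodes a glycine- and arginine-rich protein, had the smallest p. It had 2.56, 1.12, 0.402, 0 and 0.068 FPKM in N1het XCT790 libraries, against 28.9, 14.5, 8.08 and 21.4 FPKM in WT libraries. The groups did not overlap, and the log2 difference was -3.43 ± 0.71 (adjusted p = 0.221). Stc1, the hormone stanniocalcin-1 of calcium and phosphate handling, had 5.20, 4.26, 21.7, 4.55 and 2.10 FPKM in N1het XCT790 libraries and 65.6, 56.5, 26.0 and 33.8 FPKM in WT libraries. N1het XCT790 3 came near the lowest WT library, and the log2 difference was -2.72 ± 0.71 (adjusted p = 0.373).

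Fam13b averaged 21.8 ± 4.71 FPKM in N1het XCT790 and 43.4 ± 10.3 FPKM in WT libraries (-0.96 ± 0.22, adjusted p = 0.258). Rpusd2, of the RNA pseudouridine synthase family, averaged 1.87 ± 0.850 and 10.3 ± 1.92 FPKM in N1het XCT790 and WT libraries (-2.02 ± 0.49, adjusted p = 0.286). Ptpn2, a phosphatase that dampens cytokine signalling through JAK and STAT proteins, averaged 8.93 ± 2.91 FPKM in N1het XCT790 and 20.8 ± 8.48 FPKM in WT libraries (-1.12 ± 0.33, adjusted p = 0.479). Lsm6, of the ring that binds U6 RNA, averaged 3.43 ± 0.848 FPKM in N1het XCT790 and 11.2 ± 4.55 FPKM in WT libraries (-1.40 ± 0.41, adjusted p = 0.479). The other leading genes with lower values were Prkcc (protein kinase C gamma), Tmem44, Pgm5 (a phosphoglucomutase-like protein of cell junctions), Trim68 (a ubiquitin ligase), the zinc finger gene Zfp354c and Plekha2 (a phosphoinositide-binding protein), with log2 differences of -2.06 to -1.08 and adjusted p of 0.373 to 0.491.

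The 12 leading genes with higher values had log2 differences of 1.19 to 2.66 and did not overlap between groups, while 9 of the 12 with lower values did not overlap. These 24 genes were chosen by their p in the same libraries. The lack of overlap and the ranges that follow, from subsets of those libraries, are therefore descriptions. Within the libraries under 16 M reads, 3 of N1het XCT790 and 3 of WT, the log2 differences were 1.06 to 2.98 and -3.68 to -1.07. With the XCT790-labelled libraries alone they were 1.26 to 3.10 and -4.08 to -1.08, and with the solvent-labelled libraries 1.14 to 2.39 and -3.00 to -0.71. Leaving out any single library gave 1.08 to 2.97 and -3.75 to -0.81.

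**Figure D3:**
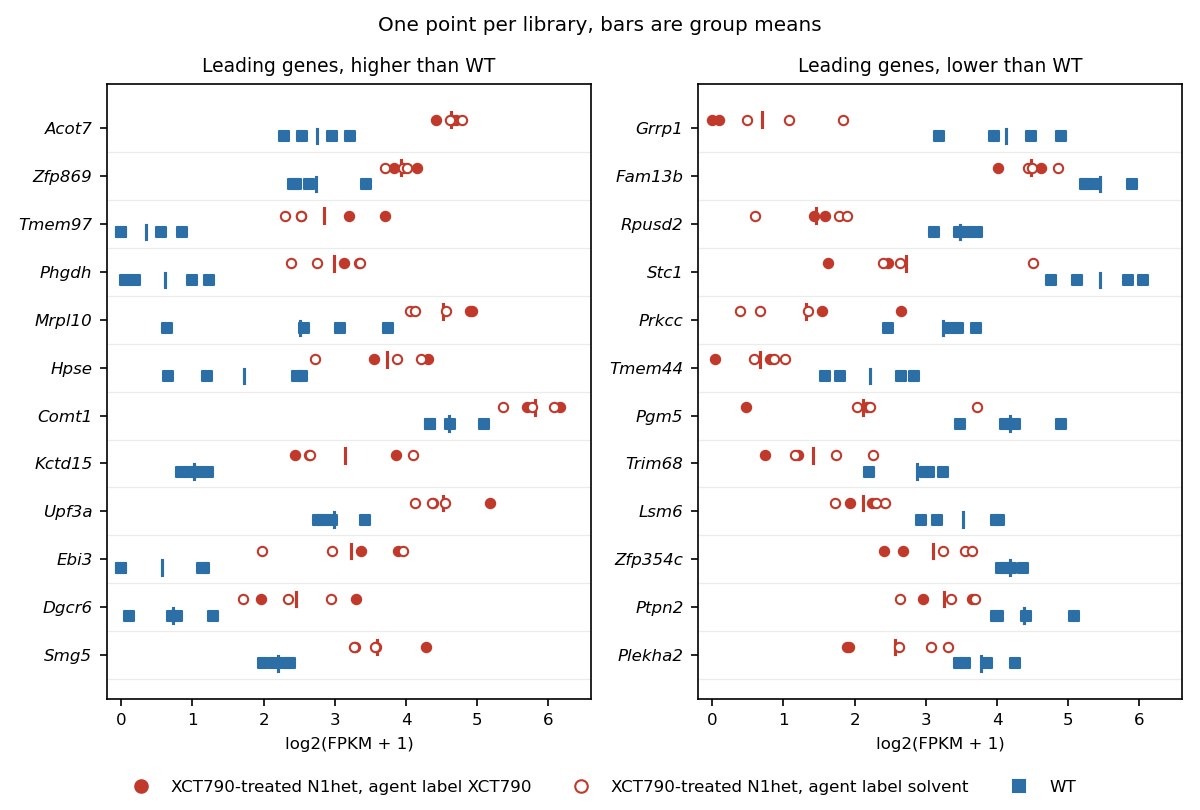
Each row is a leading gene and each point a library on the log2(FPKM + 1) scale, with N1het XCT790 libraries drawn above WT libraries. The 12 genes at the left have every N1het XCT790 library to the right of every WT library, and Prkcc, Pgm5 and Trim68 at the right overlap.

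The same genes in solvent-treated N1het valves give values side by side. N1het valves after solvent differed from WT by 0.80 to 2.06 in the 12 genes with higher values and by -2.69 to -0.65 in those with lower values, with WT libraries shared between the comparisons. N1het XCT790 valves differed from N1het solvent valves in the same genes by -0.00 to 0.91 and by -0.92 to 0.03. In this direct test limma called 0 genes (0%) and 397 (2.65%) had an unadjusted p under 0.05. Rpusd2 was the 1 gene of the 24 among them (-0.91 ± 0.44, limma adjusted p = 1). For N1het solvent against WT it called 0 genes (0%), and 1111 (7.42%) had an unadjusted p under 0.05.

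The 41 gene lists held members higher or lower at about the share of all genes. Of 856 tested list genes, 47 (5.49%) were higher and 13 (1.52%) lower at an unadjusted p under 0.05, beside 5.76% and 1.64% of all genes, and 14 lay above and 3 below all WT libraries, beside 1.75% and 0.508% of all genes. Within libraries under 16 M reads, where the median of all genes was 0.09, list medians of the opposite sign were those of ERR, PGC-1 and PPAR regulators (-0.07), interferon-stimulated genes (-0.11), osteogenic genes (-0.03), endothelial regulators (-0.02), Notch receptors and ligands (0.02) and erythroid markers (1.27, against -1.28 over all libraries). Limma called 0 genes of any list. Counts of list members below are to be read beside 5.76% higher and 1.64% lower of all genes, and 60.7% above 0.

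**Figure D4:**
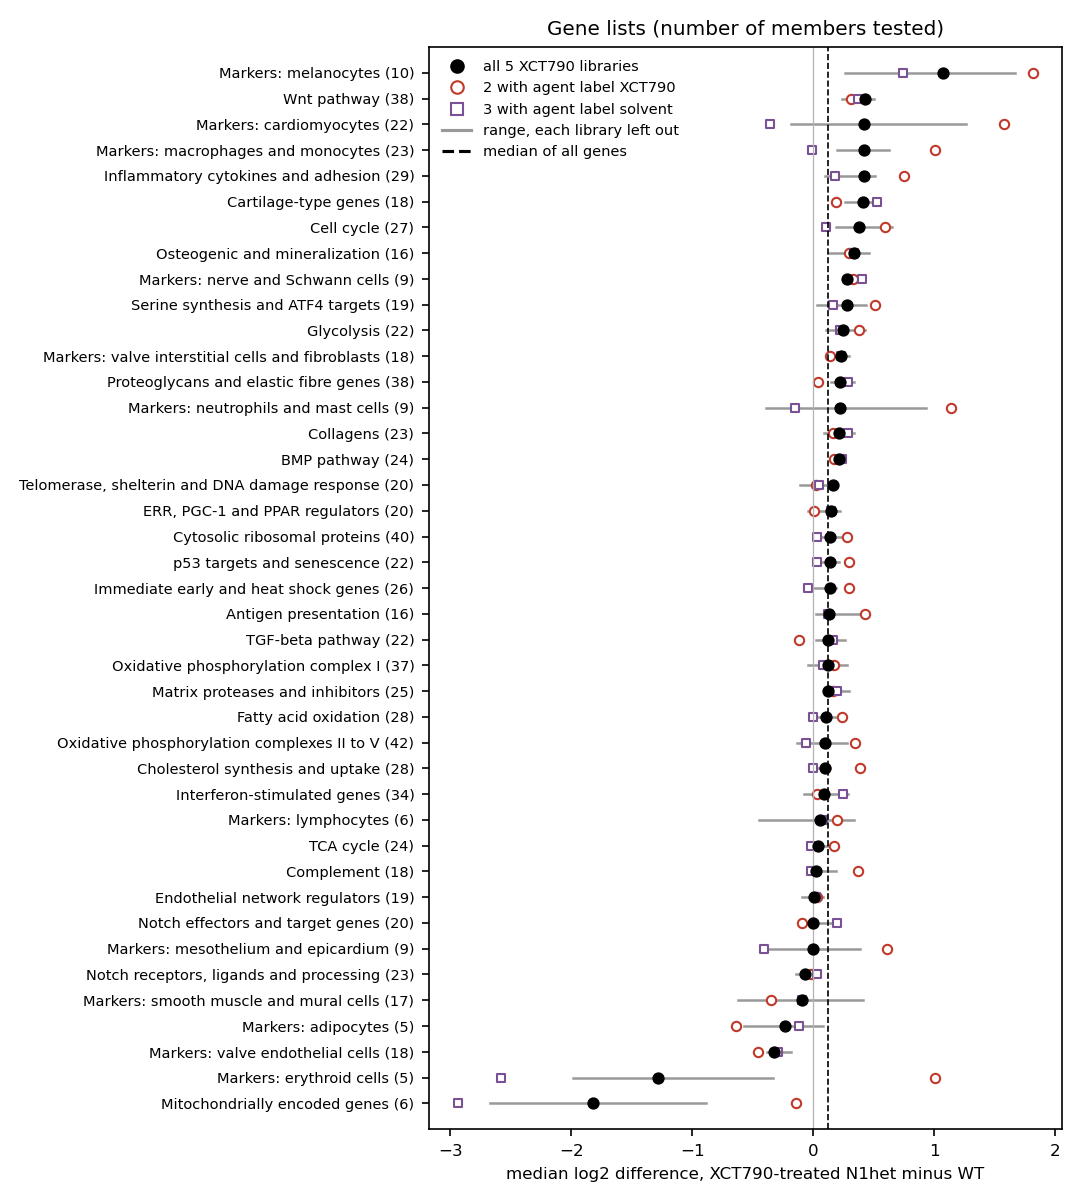
Each row is a gene list, with the median log2 difference of its tested members, N1het XCT790 minus WT, on the horizontal axis. Black points use all 5 N1het XCT790 libraries, red circles those with the agent label XCT790 and purple squares those with the solvent label, and grey bars span the medians with each library left out. Mitochondrially encoded genes lie at -1.82, melanocyte markers at 1.07, and most lists near the dashed median of all genes.

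Notch pathway lists had medians somewhat below the 0.12 of all genes. Receptors, ligands and processing enzymes had a median log2 difference of -0.07, with 10 of 23 above 0, beside 60.7% of all genes, and 0 at an unadjusted p under 0.05. Effectors and targets had a median of 0.00, with 10 of 20 above 0, 2 higher and 0 lower at an unadjusted p under 0.05. Those 2 were Gja4, the connexin of arterial endothelium that Notch signalling is known to raise, and Snai1, a repressor of epithelial genes in valve formation. Snai1 had 15.1, 15.1, 14.6, 24.3 and 5.94 FPKM in N1het XCT790 libraries and 1.92, 9.76, 4.28 and 10.9 FPKM in WT libraries (1.15 ± 0.49, adjusted p = 0.615). Among endothelial network regulators, with a median of 0.01 over 19 genes, the valve transcription factor gene Tbx20 averaged 375 ± 64.9 FPKM in N1het XCT790 and 252 ± 73.3 FPKM in WT libraries (0.60 ± 0.27, adjusted p = 0.645).

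Gja4 separated the N1het XCT790 libraries by their agent label, and it was chosen for this split after its values were seen. It stood at 62.8, 46.8 and 40.1 FPKM in the solvent-labelled libraries and at 12.9 and 12.7 FPKM in those labelled XCT790, against 7.91, 11.9, 16.7 and 9.73 FPKM in WT libraries. The solvent-labelled libraries lay in the range of the solvent-treated N1het valves, 38.4 to 98.9 FPKM, and the XCT790-labelled ones in that of WT. The log2 difference between the agent labels was -1.86 ± 0.47 (limma adjusted p = 0.538). Over all 5 libraries the difference from WT was 1.30 ± 0.45 (adjusted p = 0.538), and it was 0.18 with the XCT790-labelled and 2.04 with the solvent-labelled libraries.

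Of the 176 genes that the naming rule gives, the 6 with the smallest p between agent labels, Gja4 among them, were chosen after their values were seen. Bmp7, a ligand of bone morphogenetic protein signalling, had 7.54 and 7.88 FPKM in the XCT790-labelled libraries, 0.712, 0 and 0.601 FPKM in the solvent-labelled ones and 0, 0, 0 and 0.443 FPKM in WT libraries. The label difference was 2.64 ± 0.60 (adjusted p = 0.35). Fcgr1, the high-affinity antibody receptor of macrophages, had 17.1 and 23.9 FPKM with the XCT790 label, 4.07, 4.78 and 3.06 FPKM with the solvent label and 2.13, 2.67, 1.72 and 2.46 FPKM in WT (2.11 ± 0.53, adjusted p = 0.538). Enpp1, which makes the mineralization inhibitor pyrophosphate, had 3.79 and 3.86 FPKM with the XCT790 label, 14.6, 19.4 and 11.5 FPKM with the solvent label and 12.6, 17.3, 15.8 and 10.2 FPKM in WT (-1.71 ± 0.48, adjusted p = 0.765). Fdft1, the squalene synthase, and Cdc20, an activator of the anaphase-promoting complex, had label differences of 1.75 ± 0.53 and 2.33 ± 0.70 (adjusted p = 0.795 each). The solvent-labelled libraries held 24.8, 22.4 and 13.7 M reads and the XCT790-labelled ones 14.5 and 11.5 M. The part of depth in these label differences was not tested.

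**Figure D5:**
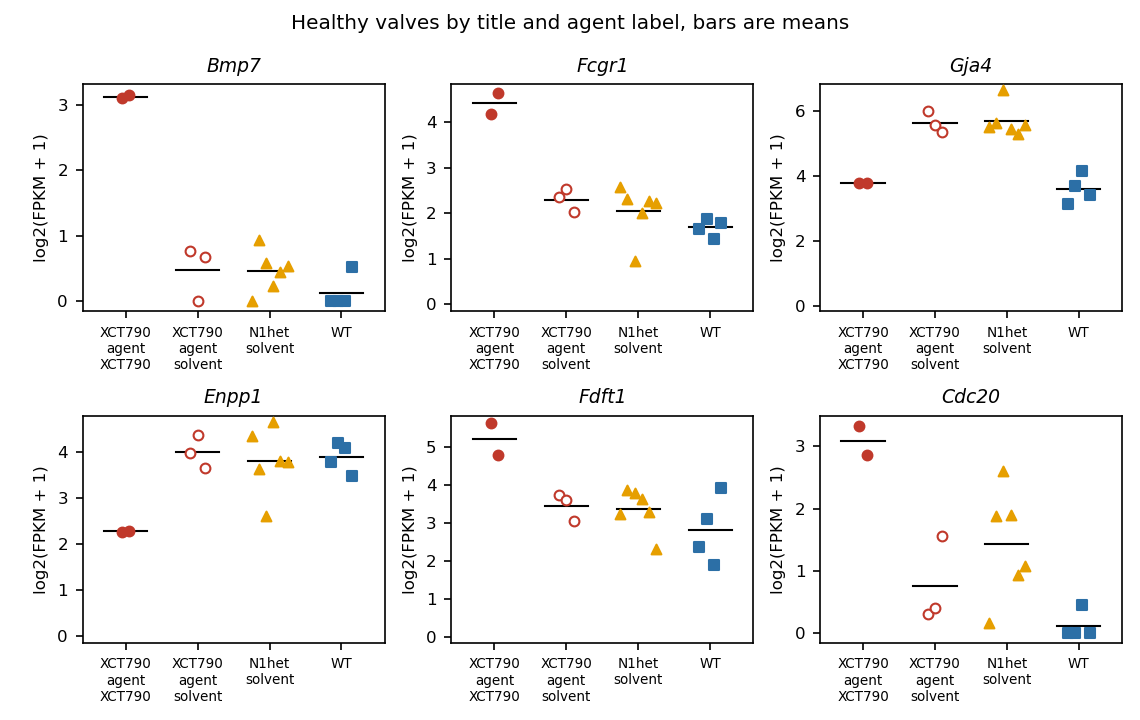
Each point is a healthy valve library on the log2(FPKM + 1) scale, in the order N1het XCT790 with agent label XCT790, N1het XCT790 with agent label solvent, N1het solvent and WT, and bars are means. For Gja4 the 2 XCT790-labelled libraries, at 12.9 and 12.7 FPKM, lie beside WT, and the 3 solvent-labelled ones beside the N1het solvent libraries.

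Over all 5 N1het XCT790 libraries, lists of genes that ERRα is known to act on had medians close to that of all genes. With the XCT790-labelled libraries they were 0.17 (complex I), 0.35 (complexes II to V), 0.17 (TCA cycle) and 0.24 (fatty acid oxidation), beside 0.06 for all genes. With the solvent-labelled ones they were 0.08, -0.06, -0.02 and -0.00, beside 0.14. For N1het solvent minus WT, in the same order, they were 0.31, 0.27, 0.32 and 0.29, beside 0.09 for all genes. For N1het XCT790 minus N1het solvent they were -0.23, -0.16, -0.22 and -0.17, beside 0.03. These comparisons share the N1het solvent libraries, and heart muscle markers had medians of 1.67 and -1.07 in them. The part of agent label and of heart muscle in the medians of the ERRα lists was not tested. Regulators of the ERR, PGC-1 and PPAR families had a median log2 difference of 0.15 over 20 genes, with 0 higher and 1 lower at an unadjusted p under 0.05. The lower gene was Tfb2m, a transcription factor of mitochondria, at 7.21, 6.21, 4.75, 6.17 and 4.98 FPKM in N1het XCT790 libraries and 25.0, 10.1, 12.7 and 5.42 FPKM in WT libraries (-0.89 ± 0.37, adjusted p = 0.604). Subunits of complex I had a median of 0.12, with 23 of 37 above 0, 3 higher and 0 lower at an unadjusted p under 0.05. Ndufv1, which binds the NADH, averaged 24.1 ± 6.23 FPKM in N1het XCT790 and 11.6 ± 4.2 FPKM in WT libraries (1.02 ± 0.39, adjusted p = 0.573). Subunits of complexes II to V had a median of 0.10, with 27 of 42 above 0 and 2 higher, Atp5h (0.84 ± 0.33) and Atp5o (0.74 ± 0.34), both of the ATP synthase (adjusted p = 0.592 and 0.66).

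Enzymes of the TCA cycle had a median of 0.04 over 24 genes, and only Idh2, the mitochondrial isocitrate dehydrogenase, passed an unadjusted p under 0.05 (1.07 ± 0.43, adjusted p = 0.595). Fatty acid oxidation had a median of 0.11, with 17 of 28 above 0 and 4 higher, beside 60.7% and 5.76% of all genes. Mlycd, which removes malonyl-CoA, had 1.94, 4.36, 4.64, 4.12 and 7.80 FPKM in N1het XCT790 libraries and 0.376, 2.38, 0.679 and 0.120 FPKM in WT libraries (1.61 ± 0.56, adjusted p = 0.538). The groups overlapped at WT 2. Acaa1a, the thiolase of peroxisomes, averaged 33.5 ± 10.3 FPKM in N1het XCT790 and 19.6 ± 5.64 FPKM in WT libraries (0.74 ± 0.27, adjusted p = 0.56).

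Glycolysis genes had a median of 0.25, with 16 of 22 above 0, 2 higher and 1 lower at an unadjusted p under 0.05. Eno1, the enolase, had 26.2, 24.1, 21.6, 24.9 and 30.9 FPKM in N1het XCT790 libraries, all above the 11, 16, 18.1 and 9.89 FPKM of WT libraries (0.88 ± 0.25, adjusted p = 0.476). Pfkfb3, which makes an activator of phosphofructokinase, was the lower one (-0.76 ± 0.36, adjusted p = 0.668). Cholesterol synthesis and uptake had 6 of 28 higher and 0 lower at an unadjusted p under 0.05, beside 5.76% and 1.64% of all genes, and a list median of 0.10. Besides Tmem97 they included Fdps, the farnesyl diphosphate synthase (1.41 ± 0.49), and Fdft1 (1.34 ± 0.47), each with an adjusted p of 0.538. For Fdft1 the difference was 2.40 with the XCT790-labelled and 0.64 with the solvent-labelled libraries. The list median was 0.39 and -0.00 by these labels, and 0.37 within libraries under 16 M reads. All genes had medians of 0.06, 0.14 and 0.09 there.

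The receptor's response element was looked for in promoters, the 250 bases before each gene's start in RefSeq (GRCm38.p6), as the letters TCAAGGTCA on either strand. It stood in 127 of 32851 promoters (0.387%) and in 27 of the 8681 tested genes matched by symbol (0.311%). Those 27 genes had a median log2 difference of 0.16, with 0 at an unadjusted p under 0.05. Of the 24 leading genes 17 had a promoter in the table, and 0 held the element. Promoters of a respiratory gene and a matrix gene with the element are shown, beside that of Acot7 without it, on the strand of the gene with the element in capitals.
Atp5g3: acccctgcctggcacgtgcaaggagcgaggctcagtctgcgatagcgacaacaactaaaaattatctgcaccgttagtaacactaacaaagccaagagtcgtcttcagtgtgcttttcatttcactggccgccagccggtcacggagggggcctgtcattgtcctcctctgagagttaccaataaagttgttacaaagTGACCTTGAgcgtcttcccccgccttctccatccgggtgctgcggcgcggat
Efemp2: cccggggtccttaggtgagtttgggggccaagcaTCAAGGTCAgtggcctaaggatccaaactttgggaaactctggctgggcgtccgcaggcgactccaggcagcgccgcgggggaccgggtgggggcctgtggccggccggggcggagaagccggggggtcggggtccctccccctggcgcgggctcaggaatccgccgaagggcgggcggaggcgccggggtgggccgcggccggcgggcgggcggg
Acot7: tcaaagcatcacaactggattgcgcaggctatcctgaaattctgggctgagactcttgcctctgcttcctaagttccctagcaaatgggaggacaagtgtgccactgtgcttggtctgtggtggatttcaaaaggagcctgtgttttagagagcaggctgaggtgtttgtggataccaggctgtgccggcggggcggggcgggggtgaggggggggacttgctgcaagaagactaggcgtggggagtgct
They lie at chr2:73911327-73911576 (minus strand), chr19:5474440-5474689 (plus strand) and chr4:152185358-152185607 (plus strand). In Atp5g3 the element is on the opposite strand and begins 52 bases before the start, and in Efemp2 it begins 216 bases before it. Atp5g3, the subunit c of ATP synthase, had 42.7, 31.4, 66.7, 63.8 and 63.2 FPKM in N1het XCT790 libraries and 26.8, 50.9, 39.9 and 59.9 FPKM in WT libraries (0.27 ± 0.39, adjusted p = 0.914). Efemp2, the elastic fibre protein fibulin-4, had 44.0, 55.8, 40.0, 43.6 and 32.7 FPKM in N1het XCT790 libraries and 23.6, 53, 26.2 and 24.4 FPKM in WT libraries (0.49 ± 0.26, adjusted p = 0.704). Both overlapped between groups.

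Mitochondrially encoded genes, which mitochondria transcribe from their own genome, had the lowest list median, -1.82, with 0 of 6 above 0 and 0 at an unadjusted p under 0.05. mt-Atp8, an ATP synthase subunit, ran over 449, 2050, 10400, 15100 and 15800 FPKM in N1het XCT790 libraries and 3230, 20000, 32200 and 40700 FPKM in WT libraries (-1.86 ± 1.17, adjusted p = 0.781). These genes took 0.06% to 2.77% of the reads of N1het XCT790 libraries and 0.52% to 8.40% of those of WT libraries. The 3 libraries over 16 M reads, N1het XCT790 1 and 2 and WT 1, had 0.06%, 0.52% and 0.52%. The list median was -1.14 within the smaller libraries, and -0.14 with the XCT790-labelled and -2.94 with the solvent-labelled libraries. The part of depth in it was not tested.

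Bone and cartilage genes had medians above that of all genes, with 1 gene at an unadjusted p under 0.05. The osteogenic list had a median of 0.34, with 10 of 16 above 0, and the cartilage list 0.41, with 14 of 18 above 0, beside 60.7% of all genes above 0. Within libraries under 16 M reads the medians were -0.03 and 0.25, beside 0.09 for all genes. Comp, a matrix protein of cartilage and tendon, was the 1 cartilage gene at an unadjusted p under 0.05, with 236, 145, 114, 200 and 130 FPKM in N1het XCT790 libraries and 59.7, 120, 75.3 and 110 FPKM in WT libraries (0.85 ± 0.32, adjusted p = 0.568). Sox9, which drives cartilage formation, had 94.9, 80.0, 72.1, 70.2 and 70.3 FPKM in N1het XCT790 libraries, all above the 34.7, 31.8, 69.6 and 42.6 FPKM of WT libraries (0.84 ± 0.44, adjusted p = 0.708). The osteogenic list had 0 genes at an unadjusted p under 0.05.

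In the BMP pathway 4 of 24 genes were higher and 1 lower at an unadjusted p under 0.05, beside 5.76% and 1.64% of all genes. The list median was 0.21, and 0.02 within libraries under 16 M reads. The lower one was the receptor gene Bmpr2, at 91.2, 116, 97.7, 75.0 and 64.7 FPKM in N1het XCT790 libraries and 130, 137, 132 and 111 FPKM in WT libraries (-0.54 ± 0.19, adjusted p = 0.539). The higher ones included the ligands Bmp7 (1.41 ± 0.60, with 2.99 by the XCT790-labelled and 0.35 by the solvent-labelled libraries) and Bmp3 (1.44 ± 0.65). Bmp3 stood at 6.95 FPKM in WT 1 against 0.147 or less in the other WT libraries. The TGF-beta list had a median of 0.12, with its receptor gene Tgfbr2 at 54, 46.3, 50.9, 57.7 and 68.2 FPKM in N1het XCT790 libraries and 41.9, 46.4, 47.3 and 25.7 FPKM in WT libraries (0.48 ± 0.22, adjusted p = 0.664). The Wnt list had a median of 0.43, and 0.19 within libraries under 16 M reads, with 27 of 38 above 0 and 1 higher, the secreted inhibitor gene Wif1, at 250, 207, 203, 115 and 150 FPKM in N1het XCT790 libraries and 122, 110, 119 and 70.0 FPKM in WT libraries (0.79 ± 0.33, adjusted p = 0.611).

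Matrix genes were close to all genes. Collagens had a median of 0.21 over 23 genes, and proteoglycans and elastic fibre genes 0.22 over 38, with 0 of either at an unadjusted p under 0.05. Lum, the keratan sulfate proteoglycan lumican, had 972, 858, 909, 894 and 807 FPKM in N1het XCT790 libraries and 657, 706, 775 and 735 FPKM in WT libraries. The groups did not overlap, and the log2 difference was 0.31 ± 0.17 (adjusted p = 0.757). Ctsd, the lysosomal protease cathepsin D, averaged 260 ± 42.5 FPKM in N1het XCT790 and 158 ± 16 FPKM in WT libraries, again without overlap (0.71 ± 0.28, adjusted p = 0.578). It was the 1 higher gene at an unadjusted p under 0.05 among 25 matrix proteases and inhibitors, which had a median of 0.12, and 2 were lower. Those were the inhibitor gene Timp4 (-1.68 ± 0.76, adjusted p = 0.648), at 0.465 FPKM or less in N1het XCT790 libraries and at 0, 0, 15.4 and 7.89 FPKM in WT libraries, and the protease gene Mmp11 (-1.48 ± 0.69, adjusted p = 0.666). Cytosolic ribosomal protein genes were above 0 in 38 of 40 with a median of 0.14, close to that of all genes, and 0.02 by the median of ratios.

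Macrophage and monocyte markers varied among the N1het XCT790 libraries. Of 23 markers 17 were above 0, beside 60.7% of all genes, with a median log2 difference of 0.42. Before adjustment 2 were higher and 0 lower at p under 0.05, beside 5.76% and 1.64% of all genes. The median was 1.01 with the XCT790-labelled and -0.01 with the solvent-labelled libraries, and 0.94 within libraries under 16 M reads. Their summed level was 1698.5, 2089.7, 3934.8, 4250.9 and 5288.6 FPKM in N1het XCT790 libraries and 1784.4 to 3026.4 FPKM in WT libraries, and all 23 were detected in every library. The solvent-labelled library 3 stood beside the XCT790-labelled ones, and these 3 held under 16 M reads each. The part of agent label and of depth in the level was not tested. C1qb, a chain of complement C1q, had 272, 327, 540, 592 and 722 FPKM in N1het XCT790 libraries and 252, 448, 320 and 156 FPKM in WT libraries (0.75 ± 0.36, adjusted p = 0.685). In whole valves a change in the number of cells of a type and a change in RNA per cell cannot be told apart.

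Inflammatory cytokine and adhesion genes had a median of 0.42, of 0.75 with the XCT790 label and 0.18 with the solvent label. Ccl4, a chemokine of macrophages, had 42.2, 44.8, 67.4, 187 and 143 FPKM in N1het XCT790 libraries and 20.1, 59.5, 49.2 and 19.6 FPKM in WT libraries (1.27 ± 0.59, adjusted p = 0.656), and its difference was 2.28 with the XCT790 label and 0.60 with the solvent label. The part of macrophage content in it was not tested. Interferon-stimulated genes had a median of 0.09 over 34 genes and 2 higher, with Irf9, part of the complex that interferons activate, at 9.51, 11.0, 11.1, 8.44 and 19.0 FPKM in N1het XCT790 libraries and 1.73, 8.14, 3.57 and 6.64 FPKM in WT libraries (1.19 ± 0.44, adjusted p = 0.56). Antigen presentation and complement genes had medians of 0.13 and 0.02, with 0 at an unadjusted p under 0.05.

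Valve endothelial markers had 5 of 18 above 0, beside 60.7% of all genes, and a median log2 difference of -0.32. Emcn, the sialoglycoprotein endomucin, had 15.9, 19.8, 15.9, 9.81 and 11.8 FPKM in N1het XCT790 libraries and 16.3, 53.2, 30.8 and 30.2 FPKM in WT libraries (-1.03 ± 0.47, adjusted p = 0.646). Their mean log2 level was 4.65 ± 0.36 in N1het XCT790 and 4.96 ± 0.19 in WT libraries (SD, n = 5 and 4; exact permutation p = 0.127, two-sided, adjusted p = 0.57 over 15 measures), and all 18 were detected in every library.

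Melanocyte markers had 9 of 10 above 0, beside 60.7% of all genes. Their median was 1.07, and it was 1.82 with the XCT790 label and 0.74 with the solvent label. Their summed level was 101.3 to 725.7 FPKM in N1het XCT790 and 21.8 to 276.0 FPKM in WT libraries. Their mean log2 level was 3.81 ± 0.87 in N1het XCT790 and 2.83 ± 1.25 in WT libraries (SD, n = 5 and 4). The exact permutation p for it was 0.238, two-sided, with an adjusted p of 0.579 over 15 measures. Dct, an enzyme of melanin synthesis, had 183, 47.1, 152, 227 and 160 FPKM in N1het XCT790 libraries and 115, 74.5, 98.8 and 5.82 FPKM in WT libraries (1.48 ± 0.75, adjusted p = 0.702), with WT 4 the lowest. Without single libraries the list median ran from 0.26 to 1.67. Sox10, a neural crest factor shared with Schwann cells, had 17, 4.43, 2.71, 13.9 and 11.4 FPKM in N1het XCT790 libraries and 0.293, 0.0371, 6.31 and 1.26 FPKM in WT libraries (2.09 ± 0.63, adjusted p = 0.481). Nerve and Schwann cell markers had 3 of 9 higher at an unadjusted p under 0.05, beside 5.76% of all genes, and S100b, a calcium-binding protein of Schwann cells, had 79.4, 47.4, 67.2, 53.3 and 93.2 FPKM in N1het XCT790 libraries, all above the 15.3, 46.9, 30.7 and 33.6 FPKM of WT libraries (1.14 ± 0.39, adjusted p = 0.519). The summed level of these markers was 145.5 to 194.9 FPKM in N1het XCT790 and 65.4 to 130.8 FPKM in WT libraries. Their list median was 0.28. Their mean log2 level overlapped between groups, with 2.29 in N1het XCT790 3 and 2.5 in WT 4. It averaged 2.51 ± 0.18 in N1het XCT790 and 2.07 ± 0.32 in WT libraries (SD, n = 5 and 4). The exact permutation p was 0.0635, two-sided, with an adjusted p of 0.476 over 15 measures.

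Cell cycle genes had a median of 0.38, of 0.59 with the XCT790 label and 0.11 with the solvent label. Of 27 genes 3 were higher and 1 lower at an unadjusted p under 0.05, beside 5.76% and 1.64% of all genes. Tpx2, a spindle factor, had 1.12, 4.94, 1.53, 4.2 and 3.98 FPKM in N1het XCT790 libraries and 0.373, 0.780, 0.337 and 1.25 FPKM in WT libraries (1.22 ± 0.45, adjusted p = 0.554). Among p53 targets, with a median of 0.14 over 22 genes, 2 were higher and 1 lower at an unadjusted p under 0.05. The higher ones were Bbc3, the cell death inducer PUMA (1.18 ± 0.49, adjusted p = 0.606), and Zmat3, an RNA-binding zinc finger protein (0.73 ± 0.33, adjusted p = 0.64). The lower one, the death receptor gene Fas, averaged 8.96 ± 4.60 FPKM in N1het XCT790 and 21.9 ± 13.9 FPKM in WT libraries (-1.08 ± 0.44, adjusted p = 0.596). The telomere list had a median of 0.16 over 20 genes. Of these 0 were higher and 2 lower at an unadjusted p under 0.05, beside 5.76% and 1.64% of all genes. The 2 lower ones were the telomerase-binding proteins Dkc1 and Nhp2. Dkc1 had 12.7, 14.2, 6.95, 5.29 and 7.98 FPKM in N1het XCT790 libraries, all below the 23.4, 14.9, 20.2 and 18.7 FPKM of WT libraries (-1.02 ± 0.42, adjusted p = 0.606), and N1het solvent libraries ranged from 1.78 to 10.3 FPKM. Nhp2 averaged 10.8 ± 5.56 FPKM in N1het XCT790 and 21.1 ± 9.06 FPKM in WT libraries (-0.96 ± 0.42, adjusted p = 0.63).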

How the data were processed

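Valves were lysed directly for RNA, which was cleaned on Qiagen RNeasy Micro columns, and libraries were made by NuGEN Ovation V2 amplification, per the labels' protocols. Tools named in the submitters' processing notes are FastQC, HISAT2, SAMtools and Picard, with mm9 as the build. Not given in the sources used here: tool versions, how reads were counted, on which gene models and whether by strand. Overlapping, antisense or near-identical genes may share reads. The authors deposited 1 table of FPKM (fragments scaled by gene length and library size) for 20872 genes, per the file headers. Whether each library is its own animal is not labelled, so p measures the spread between samples, which may be technical.

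Whole reads were recovered from the steps of the FPKM values (100% whole within 0.01 reads). The 21 libraries held 8.4 to 27.3 megareads (M), median 13.7, and low levels are less exact in the smaller ones. The unit FPKM excludes a count test as the main result. Limma 3.58.1 (R 4.3.3) was fitted to log2(FPKM + 1) of 14966 genes that averaged at least 1 FPKM (5906 left out), with 5 group means over all 21 libraries, moderated variances that follow the mean, and Benjamini-Hochberg adjustment per contrast, calling genes under 0.05. Differences on this scale understate changes of low genes. The test was first run on simulated data. Library measures were compared by exact permutation in scipy. Figures were drawn with matplotlib.

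Named genes are, in each direction, the 12 with the smallest p at a mean of 2 FPKM or more, passing over model names, because 0 were called, then Notch1 and Esrra, and from each list the 3 smallest p and the highest level (176 genes, of which 71 are described). The members and the 41 lists (962 genes, 934 in the table, 18 matched by identifier, 856 tested) were chosen with earlier results of these data known. Promoters come from RefSeq (GRCm38.p6), matched by symbol. Alternatives covered the pseudocount, filters, scalings, covariates, subsets of libraries, the agent label, voom on the recovered reads, a replicate block and single libraries left out.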

Additional observations from a re-analysis of the deposited data

Results flagged for a closer look

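In 14 of 142 groups of values for 71 of the genes described, a library stood apart from the rest of its group by Dixon's test. Chance does this in about 1 of 20 for normally distributed values, a rate that need not hold for FPKM without a log. All 14 were the highest value of their group. For Bmp7 and Cdc20, with the other WT libraries at 0, any value above 0 is flagged. In WT, Zfp869 had 9.89 FPKM in WT 3 (next 5.21), Bmp7 0.443 in WT 4 (others 0), Bmp3 6.95 in WT 1 (next 0.147), Cdc20 0.37 in WT 3 (others 0), Zmat3 29.7 in WT 2 (next 12.8), Efemp2 53 in WT 2 (next 26.2) and Tnnt2 1670 in WT 4 (next 106). In N1het XCT790 valves, Smg5 had 18.4 FPKM in library 4 (next 11.0), Stc1 21.7 in library 3 (next 5.20), Pgm5 12.2 in library 2 (next 3.66), Irf9 19.0 in library 5 (next 11.1), Timp4 0.465 in library 3 (next 0.0285), Mmp11 9.92 in library 4 (next 2.13) and Tnnt2 949 in library 5 (next 288).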

How the results depend on the processing

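The number of genes called was 0 under every alternative run except without WT replicate 3, where it was 3, so the range with single libraries left out was 0 to 3. Before adjustment, genes with p under 0.05 numbered 810 to 1335 under the alternatives, 1275 by voom on the recovered reads and 863 with sample quality weights. By voom 694 of these were higher and 581 lower, and with quality weights 418 were higher and 445 lower, against 862 and 245 on the deposited scale. With a pseudocount of 0.1 the count was 0, and 2 at an adjusted p under 0.1. The replicate numbers do not pair the samples (correlations of same-numbered deviations 0.10, -0.07, 0.03 and 0.06), and a fit with the replicate block called 0 genes and left 1095 under 0.05 before adjustment. The looser element TNAAGGTCA stood in 0.829% of tested genes matched, against 0.311%.

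Log2 differences changed sign under at least 1 alternative in 42 of the 176 genes that the naming rule gives, and in 3 of the 71 of them described here. Notch1 had 0.07 without WT 1 and WT 4, an alternative chosen after seeing the data, 0.09 without N1het XCT790 replicate 4 and 0.08 without WT replicate 1, within a range of -0.19 to 0.09 over single libraries left out. With the solvent-labelled N1het XCT790 libraries Enpp1 had 0.11 and Tnnt2 -0.34. At the spread of these libraries, 2-fold changes were recovered in 11.2% of simulated cases, all in genes above about 2 FPKM in WT. Depth was not varied there. The causes of these changes were not tested.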
